A study of Mus musculus with 8 samples.

Results

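Mitochondrial ribosomal protein genes were examined in wire-injured carotid arteries of mice with and without miR-126. The genes are those whose name on the array begins with Mrpl or Mrps followed by a digit, a rule that used no measured value. It gave 77 genes (47 Mrpl and 30 Mrps) on 100 probes, out of 36492 gene names on 55681 probes. They lie on 17 chromosomes, with 10 of them on chromosome 11. Of these, 75 genes could be tested and each gene was represented by its brightest probe. The 2 others, Mrpl21 and the pseudogene Mrps36-ps1, did not pass the filter on dim probes.

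The series measured gene expression with single-colour microarrays in 4 arteries of miR-126+/+/ApoE-/- mice and 4 arteries of miR-126-/-/ApoE-/- mice. All mice were female, 6 weeks old by the label and of mixed genetic background, received a western-type diet, and had the carotid artery injured with a wire 14 days before RNA isolation. Both groups therefore lack ApoE, a carrier protein of blood lipids, and differ by label in miR-126, a microRNA known from endothelial cells. Each array is labelled as a mouse. Neither the litter nor the targeting construct is given in the labels, and RNA came from whole arterial tissue, so that fewer cells of a type and less RNA per cell cannot be told apart. The arrays carry no probe named for miR-126. Egfl7, whose gene hosts the microRNA, read 5.53 to 5.90 in miR-126+/+ and 6.07 to 6.43 in miR-126-/- arteries on a log2 scale, which checks the host transcript and not the deletion.

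Mitochondrial ribosomes translate the few proteins encoded by mitochondrial DNA, all of which are subunits of the respiratory chain and ATP synthase. The ribosomal RNA comes from the mitochondrial genome, whereas every mitochondrial ribosomal protein is encoded in the nucleus, made in the cytosol and imported. Some of these proteins have counterparts in bacterial ribosomes and others exist only in mitochondria. In the vessel wall they are housekeeping components, and their levels are known to be high in tissues rich in mitochondria such as heart, skeletal muscle and brown fat.

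Values are log2 processed signals minus the 75th percentile of the same array, so that 0 is the signal of the 75th percentile and 1 unit is a doubling. A difference is the miR-126-/- mean minus the miR-126+/+ mean. All 8 arrays were on the same slide and scanned in the same run, with 55.9% to 61.5% of probes well above background and no saturated spot. The miR-126+/+ arrays occupied row 1 and the miR-126-/- arrays row 2 of the slide, so genotype and slide row cannot be told apart. The artery was represented by the smooth muscle gene Myh11 at 2.73 to 4.03 and the endothelial gene Cdh5 at 2.24 to 2.84 over the 8 arrays. All 75 tested genes were well above background on all 8 arrays, and none of the 77 had a spot in a locally dim area found on array miR-126-/- 4. The number of arrays limits the precision of every value.

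None of the 75 mitochondrial ribosomal protein genes passed an adjusted p of 0.05 between the genotypes in limma's test (Benjamini-Hochberg adjustment over 23830 genes, two-sided), and the lowest adjusted p was 0.291. Of all genes tested, 27 passed, which is 0.113%, with 13 higher (0.0546%) and 14 lower (0.0587%) in miR-126-/- arteries. At an unadjusted p under 0.05 there were 8 genes higher in miR-126-/- arteries, against 6.34% of all genes tested in that direction, and 1 lower gene, against 3.84%. A total of 65 of the 75 genes (86.7%) had a fitted difference above 0, compared with 48.9% of all genes. The median difference was 0.089, compared with -0.005 over all genes, and the differences ran from -0.23 for Mrps28 to 0.53 for Mrpl55. The shift was therefore small per gene and mostly in the same direction: 36 genes lay within 0.1 of 0, 14 exceeded 0.2 and 1 exceeded 0.5. The median standard error of a difference was 0.10. All 75 confidence intervals of 95% excluded a 2-fold difference, and 65 lay within 0.5 of 0 on both sides.

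**Figure D1:**
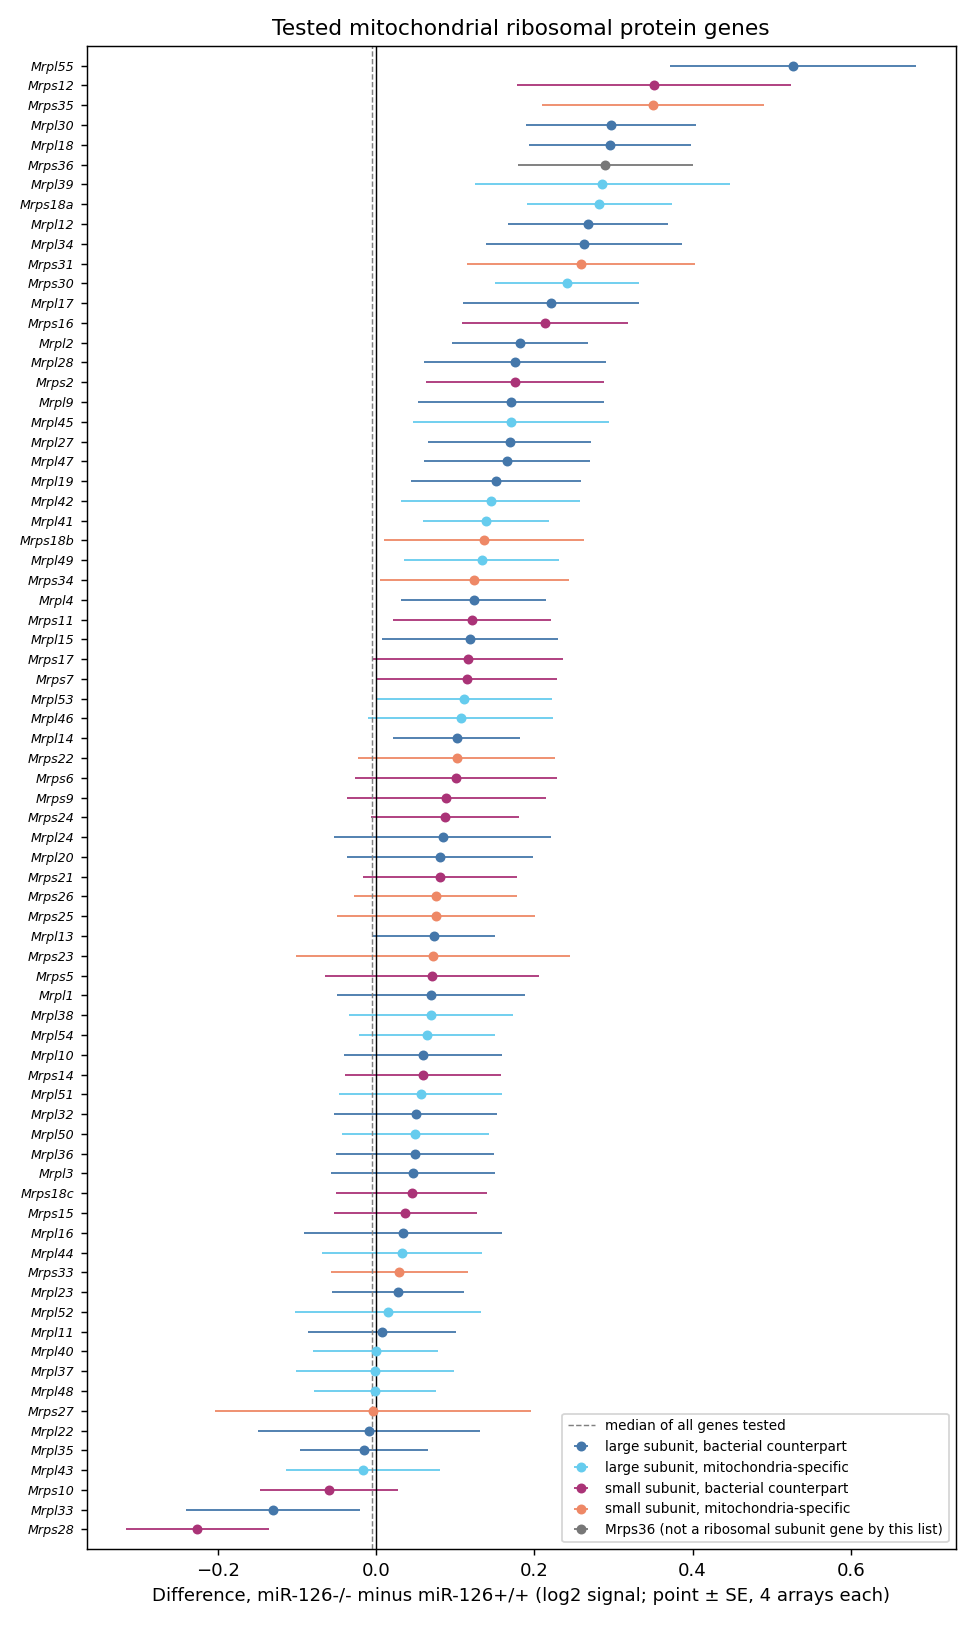
Difference in log2 signal between miR-126-/- and miR-126+/+ arteries for the 75 tested genes, as the fitted difference (points) with its standard error (bars), coloured by ribosomal subunit and origin. The differences run from -0.23 for Mrps28 to 0.53 for Mrpl55, and 65 of 75 points lie right of 0.

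For 6 genes, each miR-126-/- artery read higher than each miR-126+/+ artery: Mrpl2, Mrpl12, Mrpl18, Mrpl30, Mrpl55 and Mrps18a. Among all genes tested, 3.84% separated in this direction. No gene of the group separated in the opposite direction, which 2.56% of all genes did. The sequences before the annotated start of these 6 genes are shown because promoters of nuclear genes for mitochondrial proteins are known for binding sites of NRF1, of ETS factors such as GABP, and of YY1. They are the 250 bases upstream of the gene start in RefSeq on GRCm38.p6, at chr17:46645971-46646220 on the plus strand for Mrpl2, chr11:120484387-120484636 on the plus strand for Mrpl12, chr17:12916092-12916341 on the minus strand for Mrpl18, chr1:37890227-37890476 on the plus strand for Mrpl30, chr11:59202236-59202485 on the plus strand for Mrpl55 and chr17:46110754-46111003 on the plus strand for Mrps18a. Capitals mark matches on either strand to the NRF1 motif (GCGCA, any base, then GCGC) or the ETS motif CCGGAAG, and no YY1 motif AAGATGGC lies in these stretches.
Mrpl2: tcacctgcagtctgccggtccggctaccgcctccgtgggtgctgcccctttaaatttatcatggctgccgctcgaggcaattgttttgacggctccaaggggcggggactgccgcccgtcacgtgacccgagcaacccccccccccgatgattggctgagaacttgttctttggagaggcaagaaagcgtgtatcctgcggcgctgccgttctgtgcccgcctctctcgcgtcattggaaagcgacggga
Mrpl12: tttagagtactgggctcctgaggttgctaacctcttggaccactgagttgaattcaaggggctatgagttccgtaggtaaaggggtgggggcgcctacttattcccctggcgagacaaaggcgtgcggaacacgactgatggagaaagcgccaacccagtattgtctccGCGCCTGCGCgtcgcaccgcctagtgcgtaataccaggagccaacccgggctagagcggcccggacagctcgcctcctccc
Mrpl18: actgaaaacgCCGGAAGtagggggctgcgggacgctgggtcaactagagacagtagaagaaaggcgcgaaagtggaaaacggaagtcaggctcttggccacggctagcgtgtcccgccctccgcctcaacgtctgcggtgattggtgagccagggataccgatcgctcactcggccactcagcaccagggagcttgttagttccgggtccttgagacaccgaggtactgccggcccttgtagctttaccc
Mrpl30: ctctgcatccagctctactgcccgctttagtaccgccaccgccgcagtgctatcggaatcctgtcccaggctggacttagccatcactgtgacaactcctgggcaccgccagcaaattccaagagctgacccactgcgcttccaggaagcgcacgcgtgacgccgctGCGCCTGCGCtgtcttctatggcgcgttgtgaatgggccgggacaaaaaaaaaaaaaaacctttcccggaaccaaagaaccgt
Mrpl55: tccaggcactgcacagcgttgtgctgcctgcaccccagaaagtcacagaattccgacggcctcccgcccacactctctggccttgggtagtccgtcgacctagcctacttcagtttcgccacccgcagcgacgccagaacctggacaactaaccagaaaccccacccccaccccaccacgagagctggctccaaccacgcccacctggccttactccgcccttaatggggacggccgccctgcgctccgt
Mrps18a: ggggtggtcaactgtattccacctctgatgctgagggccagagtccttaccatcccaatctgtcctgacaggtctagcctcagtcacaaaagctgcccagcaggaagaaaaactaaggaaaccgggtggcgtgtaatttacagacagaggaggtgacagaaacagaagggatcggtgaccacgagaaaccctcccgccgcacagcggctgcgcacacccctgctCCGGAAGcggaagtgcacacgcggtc

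The NRF1 letters occur before Mrpl12 and Mrpl30, the ETS letters before Mrpl18 and Mrps18a, and neither occurs before Mrpl2 and Mrpl55. A window of 300 bases, from 250 before to 50 after the start, was available for 67 of the 77 genes. In it the NRF1 motif was present in 12 genes (17.9%), compared with 4.78% of 27025 windows of all genes and 8.82% of the windows of tested genes. The ETS motif was present in 23 (34.3%), compared with 9.12% and 15.6%. The YY1 motif was present in 12 (17.9%), compared with 2.88% and 4.08%. The GC box GGGCGG was present in 33 (49.3%), between the 35.9% of all windows and the 58.9% of windows of tested genes. The letters TATAAA were present in 4 (5.97%), compared with 14.2% and 8.55%, and the E-box CACGTG in 5 (7.46%), compared with 7.24% and 9.50%. All motifs were searched on both strands, none of these letters holds another motif of the set, and a match is a description of the window only. Tested genes with the NRF1 motif had a median difference of 0.136 (12 genes) and those without it 0.083 (54 genes). The median was 0.101 with the YY1 motif and 0.087 without it, and 0.078 with the ETS motif and 0.095 without it. The differences between these medians were not tested.

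Mrpl55, a large subunit protein with a bacterial counterpart, had the largest difference. Its probe lies at chr11:59019327-59019386 on mm9. It read 2.70, 2.82, 2.44 and 2.72 in the miR-126+/+ arteries and 2.96, 2.97, 3.52 and 3.36 in the miR-126-/- arteries. Arrays miR-126-/- 3 and 4 were the highest, and the genotypes did not overlap. The difference was 0.53 ± 0.16 (SE, n = 4 per genotype, 1.44-fold), with a confidence interval of 0.17 to 0.89 and an adjusted p of 0.291 (limma, unadjusted 0.00970).

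The other large subunit proteins with bacterial counterparts that separated the genotypes were Mrpl18, Mrpl30, Mrpl12 and Mrpl2. Mrpl18, whose bacterial counterpart binds the small ribosomal RNA of the large subunit, read 2.07, 2.17, 2.23 and 2.03 in miR-126+/+ and 2.25, 2.33, 2.59 and 2.50 in miR-126-/- arteries, a difference of 0.30 ± 0.10 (adjusted p = 0.378 in limma). Its probe lies at chr17:13104338-13104397 on mm9. Mrpl30 read 2.84, 2.97, 3.01 and 3.05 in miR-126+/+ and 3.08, 3.17, 3.48 and 3.30 in miR-126-/- arteries, a difference of 0.30 ± 0.11 (adjusted p = 0.398 in limma). For both genes the gap between the genotypes was narrow and array miR-126-/- 3 was the highest.

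Mrpl12, a protein of the stalk that recruits translation factors, read 3.50, 3.67, 3.58 and 3.57 in miR-126+/+ arteries. In miR-126-/- arteries it read 3.75, 3.68, 3.96 and 4.00, a difference of 0.27 ± 0.10 (adjusted p = 0.419 in limma). The lowest miR-126-/- value and the highest miR-126+/+ value were nearly equal. Mrpl2, a core protein near the site of peptide bond formation, read 3.68, 3.73, 3.77 and 3.78 in miR-126+/+ and 3.82, 3.83, 4.04 and 4.00 in miR-126-/- arteries. Its difference was 0.18 ± 0.09 and its adjusted p in limma 0.533.

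Mrps18a and Mrps30 carry a small subunit name, but both proteins are known to sit in the large subunit of the mammalian mitochondrial ribosome. Mrps18a read 2.43, 2.47, 2.56 and 2.60 in miR-126+/+ and 2.72, 2.74, 2.98 and 2.75 in miR-126-/- arteries, without overlap. The difference was 0.28 ± 0.09 (adjusted p = 0.339 in limma), and array miR-126-/- 3 stood above the other 3 of its genotype. Mrps30 read 1.697, 1.77, 1.81 and 1.91 in miR-126+/+ and 1.91, 1.996, 2.15 and 2.10 in miR-126-/- arteries, a difference of 0.24 ± 0.09 (adjusted p = 0.419 in limma), with overlap at 1 array of each genotype. Mrps18a has the paralogs Mrps18b and Mrps18c, whose proteins take other places in the small subunit. Mrps18b ran from 2.83 to 3.102 in miR-126+/+ and from 2.92 to 3.33 in miR-126-/- arteries, a difference of 0.14 ± 0.13. Mrps18c ran from 2.69 to 2.86 and from 2.74 to 3.04, a difference of 0.045 ± 0.095. Both paralogs overlapped between genotypes, and the differences among the 3 paralogs were not tested.

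Among small subunit proteins, Mrps35 was higher and Mrps28 lower at an unadjusted p under 0.05. Mrps35, which exists only in mitochondria, read 0.54, 0.69, 0.59 and 0.95 in miR-126+/+ and 0.81, 0.91, 1.26 and 1.19 in miR-126-/- arteries. The difference was 0.35 ± 0.14 (adjusted p = 0.450 in limma), and array miR-126+/+ 4 read above miR-126-/- 1 and 2. Mrps28 read 3.44, 3.48, 3.45 and 3.30 in miR-126+/+ and 3.19, 3.07, 3.35 and 3.16 in miR-126-/- arteries. The difference was -0.23 ± 0.09 (adjusted p = 0.450 in limma), with overlap between miR-126+/+ 4 and miR-126-/- 3. On array miR-126-/- 3, which was the highest of the 8 for 43 of the 75 genes, Mrps28 was highest of its own genotype but below 3 of the miR-126+/+ arrays.

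Mrps36 was named as a small subunit protein and is now known as a component of the oxoglutarate dehydrogenase complex. It read 2.32, 2.64, 2.51 and 2.40 in miR-126+/+ and 2.69, 2.61, 2.95 and 2.78 in miR-126-/- arteries. The difference was 0.29 ± 0.11 (adjusted p = 0.428 in limma), with overlap between miR-126+/+ 2 and miR-126-/- 2.

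**Figure D2:**
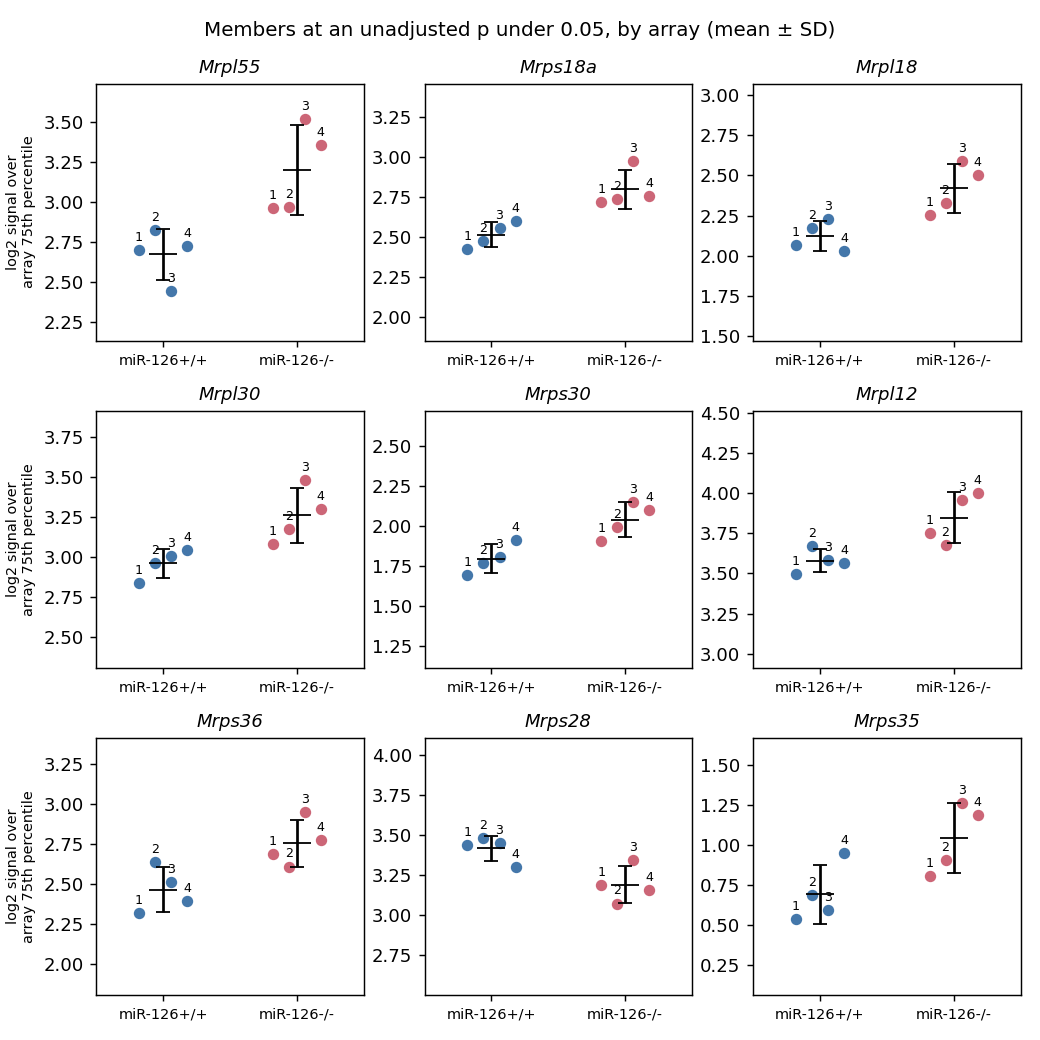
Scaled log2 signal (y axis, 0 being the 75th percentile) for the 9 genes with an unadjusted p under 0.05, by array (points, numbered by replicate) with the mean and SD of 4 arrays. All panels span the same number of log2 units, arrays miR-126-/- 3 and 4 are the 2 highest for Mrpl55, Mrpl18 and Mrpl12 among others, and Mrps28 is the only gene with the lower values in miR-126-/- arteries.

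Further genes with differences over 0.2 did not reach an unadjusted p under 0.05. Mrps12, a protein of the decoding centre, ran from 2.61 to 3.22 in miR-126+/+ and from 3.17 to 3.70 in miR-126-/- arteries, a difference of 0.35 ± 0.17. Mrpl34 differed by 0.26 ± 0.12, Mrps16 by 0.21 ± 0.11 and Mrpl39 by 0.29 ± 0.16. At the low end, Mrpl33 differed by -0.13 ± 0.11, Mrps10 by -0.059 ± 0.087, Mrpl43 by -0.017 ± 0.097, Mrpl35 by -0.015 ± 0.081 and Mrpl22 by -0.009 ± 0.141. Only Mrps28 and Mrpl33 among the 10 genes below 0 exceeded 0.1 in size. The tested genes not named so far overlapped between genotypes, and their differences ran from -0.004 for Mrps27 to 0.26 for Mrps31, the ends being named after their values were seen.

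Mrpl21 and Mrps36-ps1 gave no usable difference. Mrpl21 was well above background on 0 of 4 miR-126+/+ and 1 of 4 miR-126-/- arrays, and Mrps36-ps1 on none. No fold is given for either.

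Most genes lay above 0 in each class of ribosomal protein. Among large subunit proteins with a bacterial counterpart, 26 of 29 tested genes were above 0, with a median of 0.102. Among large subunit proteins found only in mitochondria the count was 15 of 19 and the median 0.070. For small subunit proteins the counts were 14 of 16 with a bacterial counterpart, at a median of 0.088, and 9 of 10 without, at 0.089. The differences between classes were not tested.

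The values per array show where the shift lay. With each gene centred on its own mean of 8 arrays, the mean over the 75 genes was -0.112, -0.037, -0.006 and -0.071 on miR-126+/+ arrays 1 to 4 and -0.042, -0.043, 0.172 and 0.137 on miR-126-/- arrays 1 to 4. Arrays miR-126-/- 1 and 2 lay within the miR-126+/+ range, and arrays 3 and 4 lay above it. Array miR-126-/- 3 gave the highest value for 43 of the 75 genes and miR-126-/- 4 for 19. The lowest value was on miR-126+/+ 1 for 25 genes, on miR-126+/+ 4 for 17, on miR-126-/- 1 for 10 and on miR-126-/- 2 for 9. Single arrays decided how many genes passed an unadjusted p under 0.05: the count of 9 became 2 without miR-126+/+ 1, 3 without miR-126-/- 3 and 2 without miR-126-/- 4. Of all 23830 genes, 2427 passed that p in the main fit, and 1895, 1943 and 2074 without these arrays in turn. With normexp background correction 14 genes were higher and 1 lower at that p, against 6.41% and 4.23% of all genes. In that setting 12 genes separated the genotypes as higher and 1, Mrps28, as lower, against 3.78% and 2.77% of all genes. With any 1 array left out, 58 to 70 of the 75 genes were above 0 and the median ran from 0.062 to 0.129.

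**Figure D3:**
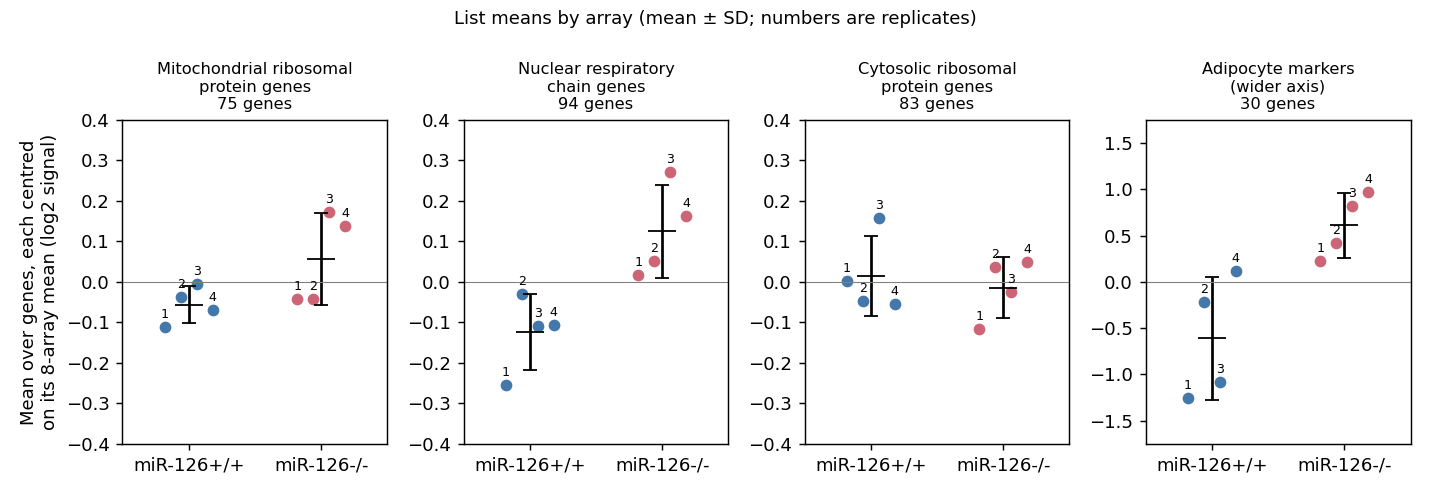
Mean centred log2 signal per array (points, numbered by replicate) with the mean and SD of 4 arrays, for mitochondrial ribosomal protein genes, nuclear respiratory chain genes, cytosolic ribosomal protein genes and adipocyte markers, the last on a wider axis. For the 75 mitochondrial ribosomal protein genes arrays miR-126-/- 3 and 4 lie at 0.172 and 0.137, above the other 6 arrays, and the genotypes overlap.

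Other proteins of mitochondrial translation were compared in lists that describe the same pathway, and no member of any of them passed an adjusted p of 0.05 in limma. Of 7 mitochondrial ribosomal proteins that carry other names in current or older annotation, 5 were above 0, with a median of 0.126. Ptcd3, a pentatricopeptide protein of the small subunit, read 2.44 to 2.58 in miR-126+/+ and 2.70 to 2.93 in miR-126-/- arteries (0.29 ± 0.09, adjusted p = 0.294 in limma). Dap3, a GTP-binding small subunit protein, differed by 0.16 ± 0.08, and Mrpl57 and Mrpl58, which the array lists under older names, by 0.13 ± 0.10 and 0.15 ± 0.09. Of 16 translation factors, 12 were above 0, with a median of 0.156. At an unadjusted p under 0.05, 5 of the 16 were higher and 0 lower, against 6.34% and 3.84% of all genes. The elongation factors Gfm1 and Tufm differed by 0.47 ± 0.14 and 0.28 ± 0.10, and Taco1, a translational activator of cytochrome c oxidase, by 0.46 ± 0.15.

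Of 19 mitochondrial aminoacyl-tRNA synthetases and amidotransferase subunits, 16 were above 0, with a median of 0.097. At an unadjusted p under 0.05, 3 of the 19 were higher and 0 lower, against 6.34% and 3.84% of all genes. The amidotransferase subunit Gatb differed by 0.35 ± 0.09 and the leucyl-tRNA synthetase Lars2 by 0.31 ± 0.11. Of 25 genes for ribosome assembly and rRNA modification, 20 were above 0, with a median of 0.0996. Of these 25, 3 separated the genotypes as higher and 1 as lower, against 3.84% and 2.56% of all genes. The lower one was Mrm1, an rRNA methyltransferase (-0.18 ± 0.09). The pseudouridine synthase Trub2 differed by 0.54 ± 0.13 (adjusted p = 0.215 in limma) and the assembly factor Mterf4 by 0.36 ± 0.10. Of 20 genes that transcribe or maintain mitochondrial DNA, 18 were above 0, with a median of 0.104, and the topoisomerase Top1mt differed by 0.39 ± 0.14. Prorp, the catalytic subunit of mitochondrial RNase P, differed by -0.38 ± 0.17.

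Regulators of mitochondrial gene expression gave mixed values. Of 15 tested, among them Tfam and Tfb2m of the preceding list, 11 were above 0, with a median of 0.055. The coactivators Ppargc1b and Ppargc1a differed by 1.29 ± 0.39 (adjusted p = 0.299 in limma) and 0.56 ± 0.23, with Ppargc1b at background on 1 of the 4 miR-126+/+ arrays, and the nuclear receptor Esrra by 0.27 ± 0.09. Nrf1 differed by 0.003 ± 0.083, the ETS factor subunit Gabpa by 0.097 ± 0.091 and the mitochondrial transcription factor Tfam by 0.008 ± 0.094. The last 3 values lay within about 1 standard error of 0.

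Nuclear genes of the respiratory chain and ATP synthase were taken by names beginning with Nduf, Uqcr, Atp5 or Cox and a digit, plus Sdha to Sdhd. These names also admit assembly factors. The 94 tested genes of this list had a median difference of 0.250. Of these, 87 were above 0. At an unadjusted p under 0.05, 40 were higher, compared with 6.34% of all genes, and 29 separated the genotypes, compared with 3.84%. The ATP synthase subunit Atp5k differed by 0.46 ± 0.09, the complex III subunit Uqcr11 by 0.51 ± 0.13 and the complex I subunit Ndufa5 by 0.39 ± 0.10, with adjusted p-values in limma of 0.165, 0.240 and 0.247. The mean per array ran from -0.255 to -0.030 in miR-126+/+ and from 0.016 to 0.270 in miR-126-/- arteries, without overlap. The 83 cytosolic ribosomal protein genes had a median of -0.018, and 32 of them were above 0. Their mean per array ran from -0.054 to 0.157 in miR-126+/+ and from -0.117 to 0.048 in miR-126-/- arteries. The differences between these lists were not tested.

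**Figure D4:**
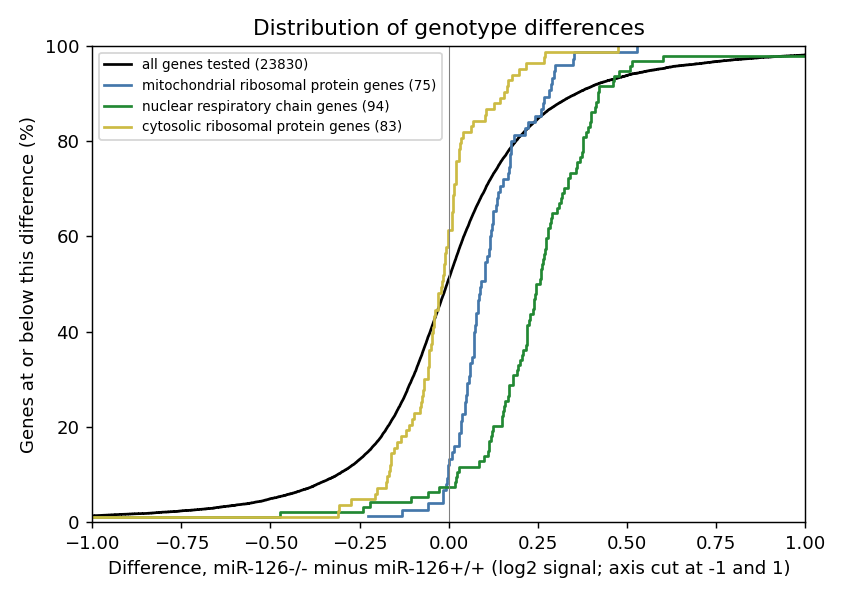
Share of genes (in percent) at or below each genotype difference (log2 signal, axis cut at -1 and 1) for all 23830 genes tested, the 75 mitochondrial ribosomal protein genes, 94 nuclear respiratory chain genes and 83 cytosolic ribosomal protein genes. The curve of the 75 genes crosses 50 percent at its median of 0.089, between the curves of all genes (-0.005) and of the respiratory chain (0.250).

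No marker of any listed cell type passed an adjusted p of 0.05 in limma, the lowest being 0.056 in the brown adipocyte and endothelial lists. Adipocyte markers read higher as a list in miR-126-/- arteries, as did most endothelial and lymphocyte markers, given further below. Of 30 adipocyte markers, 29 were above 0, with a median difference of 1.35. At an unadjusted p under 0.05, 25 of the 30 were higher and 0 lower, against 6.34% and 3.84% of all genes. Their mean per array ran from -1.26 to 0.12 in miR-126+/+ and from 0.22 to 0.98 in miR-126-/- arteries, with miR-126-/- 3 and 4 highest at 0.82 and 0.98. Adipoq, the adipocyte hormone adiponectin, read 3.08, 3.63, 3.36 and 5.11 in miR-126+/+ and 4.31, 4.83, 5.34 and 5.53 in miR-126-/- arteries. Plin1, which coats lipid droplets, differed by 1.34 ± 0.47 and Fabp4, a fatty acid carrier, by 1.02 ± 0.27. Ucp1, the defining uncoupling protein of brown fat, ran from -0.75 to 3.78 and from 2.56 to 5.02. All 11 tested brown adipocyte markers were above 0, 8 of them at an unadjusted p under 0.05. Their list means were -1.56 to -0.03 and 0.40 to 1.03 per array. These lists describe fat in the samples. The part of the adipocyte markers in the values of the mitochondrial ribosomal protein genes was not tested apart from a fit with the adipocyte mean as a covariate. The adipocyte mean itself did not overlap between genotypes, so that covariate and genotype partly coincide. In that fit 47 of the 75 genes were above 0, the median was 0.031 and none of the 75 had an unadjusted p under 0.05. Of all 23830 genes, 1054 had an unadjusted p under 0.05 in that fit and 1 passed an adjusted p of 0.05.

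Skeletal muscle markers varied between arrays of the same genotype, with list means of -1.50 to 2.24 in miR-126+/+ and -1.23 to 2.45 in miR-126-/- arteries over 25 genes. Array miR-126+/+ 2 and array miR-126-/- 1 were highest. Acta1, the actin of skeletal muscle, read 1.98, 4.37, 2.29 and -0.31 in miR-126+/+ and 4.71, 2.12, 2.03 and 0.35 in miR-126-/- arteries, and Ckm, muscle creatine kinase, was well above background on 3 and 2 of 4 arrays. Without these 2 arrays the median of the mitochondrial ribosomal protein genes was 0.140 and 70 of 75 were above 0. In that comparison of 3 against 3 arrays 13 of them separated as higher, as did 8.21% of all genes. With the skeletal muscle mean as a covariate on all 8 arrays the median was 0.096 and 70 of 75 were above 0. In that fit 9 of the 75 had an unadjusted p under 0.05, as did 2446 of all 23830 genes tested. Of 25 endothelial markers 24 were above 0 (median 0.278), of 18 smooth muscle markers 13 (0.152), of 17 macrophage markers 7 (-0.015) and of 16 lymphocyte markers 15 (0.782). At an unadjusted p under 0.05, 9 endothelial, 1 smooth muscle, 1 macrophage and 4 lymphocyte markers were higher, against 6.34% of all genes. In the other direction 1 macrophage marker was lower, against 3.84%. Mean values per array ran from -0.315 to -0.070 in miR-126+/+ and from -0.016 to 0.320 in miR-126-/- arteries for the endothelial list, and from -0.703 to 0.291 and -0.307 to 1.41 for the lymphocyte list. The part of the endothelial, smooth muscle, macrophage and lymphocyte markers in the result was not tested.

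Further probes were well above background for 22 of the tested genes, 23 in all. Their median difference was 0.031, and 13 of the 23 were above 0. In 12 cases the sign equalled that of the brightest probe and in 11 it did not. By the rule each of them was dimmer than the brightest probe of its gene. The largest gap was at Mrpl39, whose brightest probe differed by 0.29 ± 0.16 and whose other probe differed by -0.47 ± 0.31. That other probe had means of -3.20 in miR-126+/+ and -3.67 in miR-126-/- arteries, beside 1.92 and 2.20 for the brightest. Mrps36 had a second probe at 0.21 ± 0.11 beside 0.29 ± 0.11. None of the other probes had an unadjusted p under 0.05. With every probe counted on its own, 79.6% of the 98 probes were above 0, compared with 48.6% of all probes tested.

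**Figure D5:**
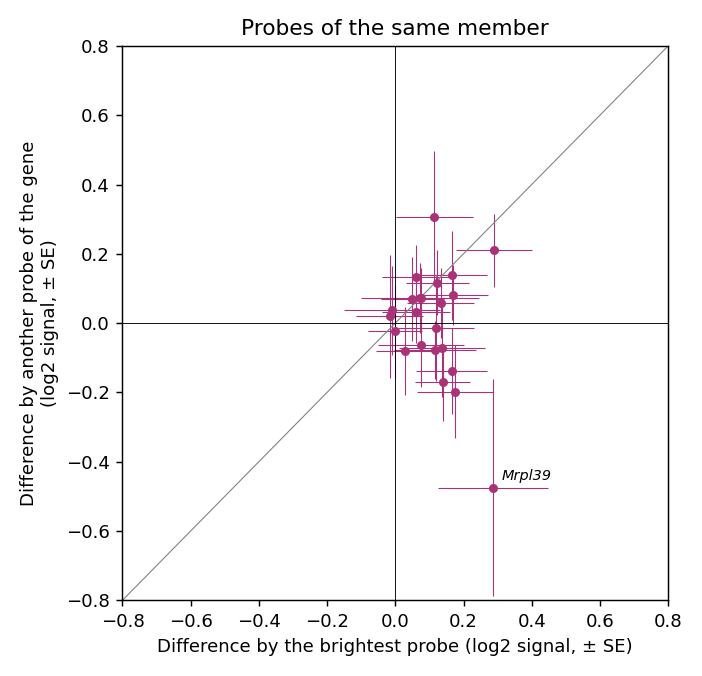
Genotype difference by another probe of a gene against that by its brightest probe (log2 signal, points with standard errors; the diagonal marks equality) for 23 probes of 22 genes. Most points lie right of 0, 13 lie above 0, and Mrpl39 is the point farthest from the diagonal.

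Several of these genes share a start region with a neighbour on the opposite strand. Of the 67 genes with a window, 25 (37.3%) had an oppositely directed gene start within 1000 bases, compared with 11.4% of all 27025 windows. Only 12470 of these windows belong to tested genes, and the share among those was not counted. The median distance was 131 bases. Of 24 partners tested, counted per member, 15 were above 0. In the 23 pairs with both genes tested, which leaves out the partner of Mrpl21, the median difference was 0.017 for the partners and 0.114 for the mitochondrial ribosomal protein genes. The only pair inside the group was Mrpl46 and Mrps11, 42 bases apart, at 0.11 ± 0.12 and 0.12 ± 0.10. Mrpl47 (0.17 ± 0.10) adjoins the complex I gene Ndufb5 (0.37 ± 0.10), Mrps12 (0.35 ± 0.17) the mitochondrial seryl-tRNA synthetase Sars2 (0.15 ± 0.12), and Mrpl43 (-0.017 ± 0.097) the mitochondrial helicase Twnk (0.027 ± 0.122). Mrpl18 (0.30 ± 0.10) adjoins the cytosolic chaperonin gene Tcp1 (-0.12 ± 0.08). The difference between neighbours was not tested.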

How the data were processed

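Total RNA (100 ng per sample, per the labels' protocols) was spiked, converted to Cy3-labelled cRNA and run on Agilent mouse arrays. Per the submitters' processing notes and the file headers, the authors read them with Agilent Feature Extraction 10.7.3.1. The processed signal used here is a linear intensity, background-subtracted per the file headers. The deposited table of the authors gives these intensity values too, unscaled between arrays (median log2 difference 0, column medians 41.7 to 57.5), and served as an alternative.

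Control and outlier spots were left out and spots of a probe averaged. Log2 signals were scaled by each array's 75th percentile. A probe entered if well above background on at least 3 of 4 arrays of a genotype, which 23830 genes had. Names were updated through RefSeq accessions (GRCm38.p6 table, 47.4% of probes matched). No member's name changed. Probe positions are mm9, per the file headers, and exons or untranslated regions were not annotated here. The genotype contrast was fitted over all genes in R 4.3.3 by lmFit and eBayes of limma 3.58.1 (no covariate, two-sided), with Benjamini-Hochberg adjustment and a threshold of 0.05. The fit was tried on simulated data with planted changes larger than the difference of any member. Detection of differences of the members' size was not tested. Python 3.11.15, pandas 2.3.3, numpy 2.4.6 and matplotlib 3.10.9 were used. The fit measures the spread among 4 arrays per genotype.

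Named genes are the 12 members with the smallest p, the 6 largest differences in each direction, members without overlap or without a test, those whose probes differ by over 0.5, the Mrps18 paralogs and Mrps36, up to 3 genes per list by smallest p, and regulators and cell type markers. Other probes, classes, neighbours and genes such as Dap3, Mrpl57, Mrpl58, Egfl7, Myh11, Cdh5 and Mrm1 were added as context. The members and lists were chosen with earlier results of these data known. Alternatives were normexp (offset 50), quantile normalization, other percentiles and filters, other probe rules, the deposited table, an intensity trend, array weights, a replicate block, covariates and each array left out.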

Additional observations from a re-analysis of the deposited data

Results flagged for a closer look

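Of 54 groups of 4 values examined, 4 (7.41%) held an array far from the other 3 by Dixon's test, where chance gives about 1 in 20. Mrps18a read 2.98 on array miR-126-/- 3, above the next value of 2.75 in its genotype. Mrps18c read 2.69 on array miR-126+/+ 4, below the next value of 2.83. The remaining 2 are genes near or below background: Mrpl21 read -4.74 on array miR-126-/- 4, the next value being -7.24, and Mrps36-ps1 read -5.24 on array miR-126-/- 1, the next being -7.16.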

How the results depend on the processing

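No mitochondrial ribosomal protein gene passed an adjusted p of 0.05 in limma under any of 24 alternatives, of which 1 (leaving out miR-126+/+ 2 and miR-126-/- 1, the arrays richest in skeletal muscle transcripts) was chosen after seeing the data. The median difference stayed above 0 in all 24 (0.031 to 0.140). The count at an unadjusted p under 0.05 was 15 with normexp (14 higher), 0 with the adipocyte mean as a covariate and 2 to 10 with an array left out. Over all 23830 genes that count was 2537, 1054 and 1895 to 3220 in these settings. The count without overlap was 13 with normexp, where 3.78% of all genes separated as higher and 2.77% as lower. Without the 2 muscle-rich arrays it was 13, all higher, against 8.21% of all genes. With an array left out it was 6 to 11, but the share of all genes was not counted there. That range therefore has no background to be read against, and fewer arrays make separation easier by construction. The 27 genes called over the whole array became 11 with quantile normalization, with no filter or with the muscle covariate, 12 with the deposited table, 6 with probes above background on all arrays, 10 with the mean of a gene's probes, 13 with every probe on its own, 18 with an intensity trend, 71 with array weights, 0 with the replicate number as a block, 1 with the adipocyte covariate, 0 without the 2 muscle-rich arrays and 0 to 51 with an array left out. Same-numbered arrays correlated at -0.28 to 0.20 in their deviations from the group means, and the other combinations at -0.33 to 0.40. These correlations cannot decide whether the numbers mark pairs, which the labels do not say. With the replicate block 8 members had an unadjusted p under 0.05, as did 2180 of all 23830 genes, and the lowest adjusted p of a member was 0.482.

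Of 21 named genes with a test, 13 kept their direction throughout. The adipocyte covariate turned Mrps35 to -0.046, Mrpl33 to 0.071, Mrpl43 to 0.150 and Mrps18b to -0.027. The mean of a gene's probes turned Mrpl39 to -0.095, Mrpl43 to 0.00124 and Mrpl22 to 0.014. Mrpl22 was 0.00349 with the deposited table, 0.00333 with the muscle covariate and 0.139 without the 2 muscle-rich arrays, where Mrpl35 was 0.018. With an array left out, Mrpl43 ran from -0.080 to 0.035, Mrpl35 from -0.058 to 0.023, Mrpl22 from -0.083 to 0.111 and Mrps18c from -0.019 to 0.081. The cause was not tested. Signal was not limiting for the 75 tested genes, which were above background on all arrays, and 4 arrays per genotype limit the precision.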
